A study of Homo sapiens with 17 samples.

Results

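The 46 genes described here encode proteins that copy DNA in S phase: the origin recognition and licensing factors, the replicative helicase and the factors that start it, the polymerases, the sliding clamp and its loaders, enzymes that join the lagging strand or supply nucleotides, factors that repackage the new DNA, and 2 E2F transcription factors. They were chosen by gene function and by no measured value. All 46 were found by symbol among the 58870 genes of the deposited table, and all 46 passed the filter on low counts, with between 126 and 9167 counts per library.

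RNA was measured in MDA-MB-231, a widely used human line of triple-negative breast cancer that the labels class as mesenchymal basal B. The cells were given TRAIL, a ligand that can start apoptosis through death receptors on the cell surface, at 45 nM, and RNA was taken at 0, 1, 3, 6, 12 and 24 h. The labels describe the dose as suboptimal, and the design text says that it was set so that living cells rather than dying ones would be followed. There were 3 libraries at each time except 1 h, with 2, and 17 in all. Every library carries the same TRAIL treatment label, the 0 h libraries included, and the labels name no later library without TRAIL, so time with TRAIL and time in culture cannot be told apart in any comparison. The cells were grown in medium with serum. Nothing in the labels says whether the libraries of a time came from separate cultures, so p-values measure the spread between these libraries, which may be technical. Because bulk RNA was measured, fewer cells in S phase and less of these transcripts per cell cannot be told apart either.

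Before S phase, origins of replication are licensed when the origin recognition complex, with CDC6 and CDT1, loads the ring of MCM2 to MCM7 onto DNA. CDC7 kinase, CDC45, the GINS complex and MCM10 then turn that ring into an active helicase, DNA polymerase alpha with primase starts each strand, and polymerases delta and epsilon extend it with PCNA as their sliding clamp. Many of these genes are transcribed as cells pass from G1 into S phase, when E2F factors are released from the retinoblastoma protein, so their summed RNA is widely read as a measure of entry into S phase.

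Total counts per library ran from 13731520 to 19234924, and the biological coefficient of variation common to all genes was 7.06%. Levels are given as CPM, a gene's counts scaled to the library total after TMM scaling, a correction for differences in RNA composition. The mesenchymal markers VIM, CD44, FN1, CAV1 and ZEB1 were expressed, VIM at 3357 ± 108 CPM at 0 h (SD, n = 3), whereas SPARC, listed beside them as a marker of such lines, had at most 17 counts in any library. The hormone receptor genes ESR1 and PGR had at most 2 and 1 counts, the T cell gene CD3E had 0 in every library and the leukocyte gene PTPRC at most 5. Of the 3 tested markers of other cell types, COL1A1, a collagen of fibroblasts, was at 9.05 ± 1.28 CPM at 0 h, higher after 3 and 6 h (14.8 ± 2.86 and 13.1 ± 0.889 CPM) and lower after 24 h (6.25 ± 0.337 CPM). PECAM1, an endothelial gene, was higher after 24 h, at 3.21 ± 0.667 against 1.43 ± 0.449 CPM, and CD14, of monocytes, was called at no time against 0 h. The epithelial genes EPCAM and GATA3, listed as low in this line, were at 17.8 ± 1.37 and 10.5 ± 1.24 CPM at 0 h, and EPCAM was lower after 6 h, with a log2 fold change of -0.38 ± 0.11 (SE). CDH1, listed with them as absent or low, also passed the filter and, like GATA3, was called at no time against 0 h. The part of other cell types in the results was not tested. Replicates 2 and 3 after 6 h, and again after 24 h, were closer to each other than any other pair, with a chi-square per gene of 1.52 and 1.69 against 4.09 to 16.1 elsewhere. They differed by more than sampling noise and were kept as separate libraries. Calls or counts with each pair averaged as 1 are given for the results that changed most. The mitochondrial share of counts and the slope of log2 CPM on log2 transcript length also moved with time, from 6.75% and -0.036 on average at 0 h to 4.49% and 0.070 after 6 h, 5.72% and 0.017 after 12 h, and 3.90% and 0.095 after 24 h. Their part in the results was not tested beyond a fit that removed each library's trend with length and GC content. Its counts, taken only for the genes described here and for other replication genes, stand beside the results they change.

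The 46 genes together lost RNA over the first 12 h and regained part of it by 24 h. Their summed level was 5669, 5720 and 5701 CPM in the libraries at 0 h, 5628 and 5554 at 1 h, and 5280, 5297 and 5366 after 3 h. It was 5091, 5131 and 5179 CPM after 6 h, 4518, 4610 and 4617 after 12 h, and 5060, 4954 and 4974 after 24 h. No library from 1 h on reached the lowest library at 0 h, and the 12 h libraries lay below those of every other time. The mean fell from 5696 ± 26.0 CPM at 0 h to 4582 ± 55.3 after 12 h and stood at 4996 ± 56.5 after 24 h (SD, n = 3 each). As a share of all counts the genes made up 0.569% at 0 h and 0.468% after 12 h. The lowest mean of a gene fell after 12 h for 24 of the 46, after 6 h for 9, after 24 h for 7 and after 3 h for 6, and at 0 or 1 h for none. How often the lowest mean fell at each time among all genes tested was not counted.

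**Figure D1:**
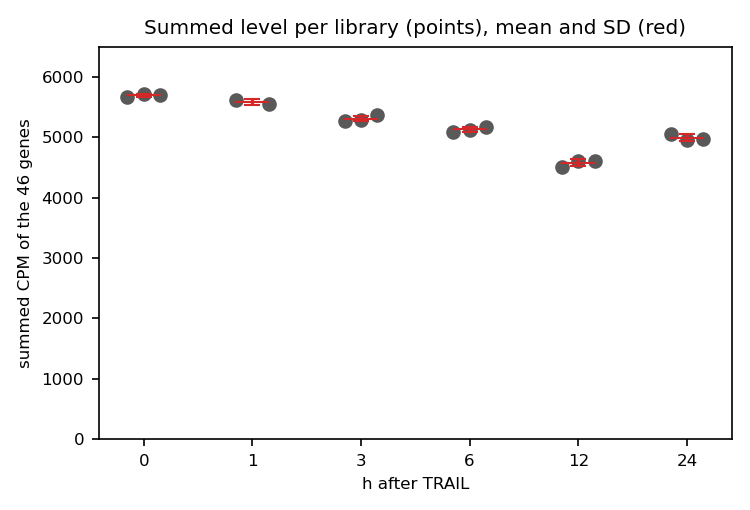
Summed level of the 46 replication genes, in CPM, against hours after TRAIL; grey points are libraries, and red marks give the mean and SD of each time. The 12 h libraries (4518 to 4617 CPM) lie below all others, and the 24 h libraries (4954 to 5060 CPM) lie between them and the 0 h libraries (5669 to 5720 CPM).

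Each later time was compared with 0 h in edgeR's quasi-likelihood test, and a gene was called where its p-value, adjusted over the 15365 genes tested, was below 0.05. At 1 h, 0 of the 46 genes were called and 0 had an unadjusted p below 0.05, and DESeq2 and limma-voom called 0 too. Of all genes, 0.260% were called higher and 0.0521% lower at 1 h. At 3 h, 10 of the 46 were lower and 2 higher, where 8.71% of all genes were lower and 9.04% higher. At 6 h, 24 were lower and 1 higher, against 13.2% and 16.9% of all genes. At 12 h, 34 were lower and 0 higher, against 6.48% and 5.96%. At 24 h, 27 were lower and 1 higher, against 17.1% and 18.0%. In percent, 52.2% of the 46 were lower after 6 h, 73.9% after 12 h and 58.7% after 24 h. These comparisons share the 0 h libraries and are not independent of one another.

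The changes were small. The median log2 fold change of the 46 genes was -0.028 at 1 h, -0.12 after 3 h, -0.18 after 6 h, -0.33 after 12 h and -0.18 after 24 h, where the median over all genes tested lay between -0.022 and -0.0017. At 12 h the median corresponds to a level lower by 20.3%. The fitted change was below 0 for 41 of the 46 genes after 3 h, 37 after 6 h, 44 after 12 h and 38 after 24 h. Every library of the later time lay below every 0 h library for 6 of the 46 genes at 1 h, against 8.96% of all genes, for 16 after 3 h, against 16.7%, and for 28 after 6 h, against 21.4%. It was so for 40 genes after 12 h, against 15.7%, and for 30 after 24 h, against 22.9%. Over all 6 times together, 44 of the 46 changed in the F-test of edgeR, against 64.2% of all genes, and the exceptions were CDC7 and POLD3.

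**Figure D2:**
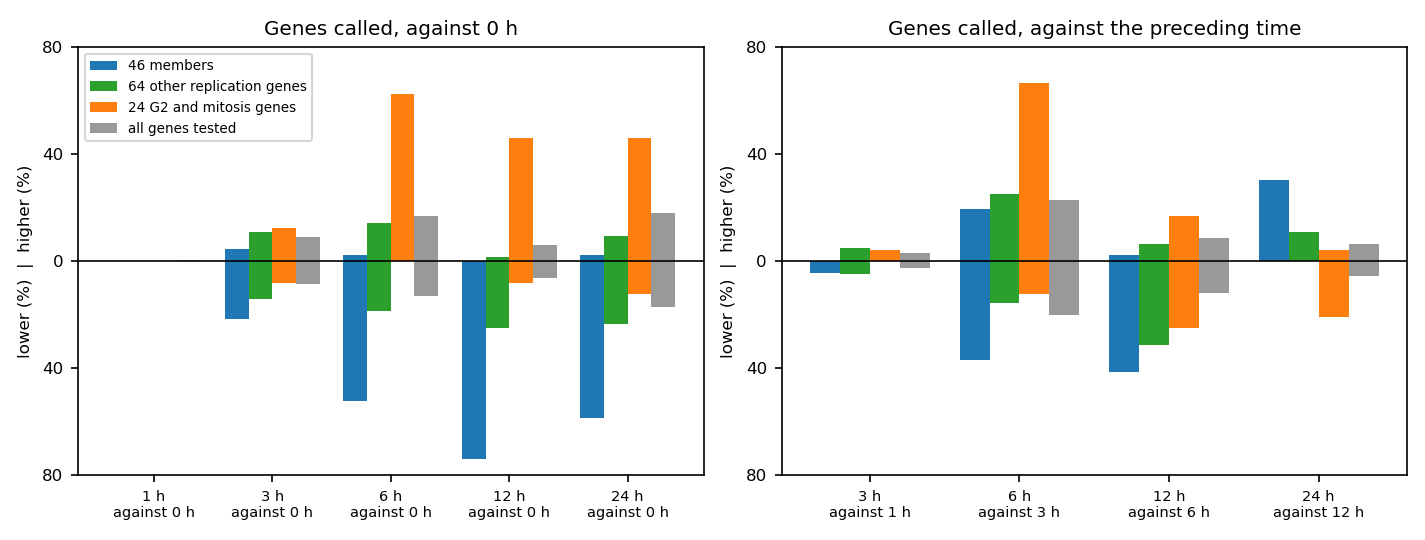
Percent of genes called higher (above 0) and lower (below 0) in each comparison, for the 46 replication genes, the other lists and all genes tested; called means an adjusted p below 0.05 in edgeR's quasi-likelihood test. At 12 h against 0 h, 73.9% of the 46 were lower against 6.48% of all genes.

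In all, 42 of the 46 genes were lower at 1 or more times and 4 were higher at 1 or more: ORC6 and POLE after 3 h, RRM1 after 6 h and RFC1 after 24 h. The shares of all genes lower or higher at 1 or more times, or with the patterns of times below, were not counted. Of all genes, 64.2% changed in the F-test over all times. Of the 46, 16 were lower at each of 6, 12 and 24 h: CDC6, CDT1, MCM3, MCM5, CDC45, GINS2, POLD1, POLE2, PCNA, RFC2, RFC5, FEN1, TK1, CHAF1B, UHRF1 and E2F1. With the length and GC trends of the libraries removed, CDT1, RFC2, RFC5, FEN1 and TK1 were not called after 6 h, nor FEN1 and TK1 after 24 h. Another 7 were lower at 12 and 24 h and not after 6 h, namely MCM7, MCM10, POLE, RFC3, LIG1, RRM2 and TYMS, and 6 at 6 and 12 h and not after 24 h, namely MCM4, MCM6, POLA2, PRIM1, UNG and E2F2. MCM2, GINS1, DSCC1, CHAF1A and CLSPN were lower after 12 h and at neither 6 nor 24 h. CDC7, POLA1 and POLD3 were called at no time against 0 h. With replicates 2 and 3 averaged, CDT1, MCM6, POLD1, RFC5, FEN1 and SLBP were no longer called lower after 6 h, nor RRM1 higher. After 24 h, MCM7, MCM10, POLE2, RFC3, FEN1, TK1 and SLBP then lost their lower calls. The MCM6 call after 6 h was also lost without any single library at 0 or 6 h and with no filter (adjusted p = 0.159, edgeR). That of MCM4 after 6 h was lost without replicate 2 at 0 h or replicate 1 or 2 after 6 h.

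**Figure D3:**
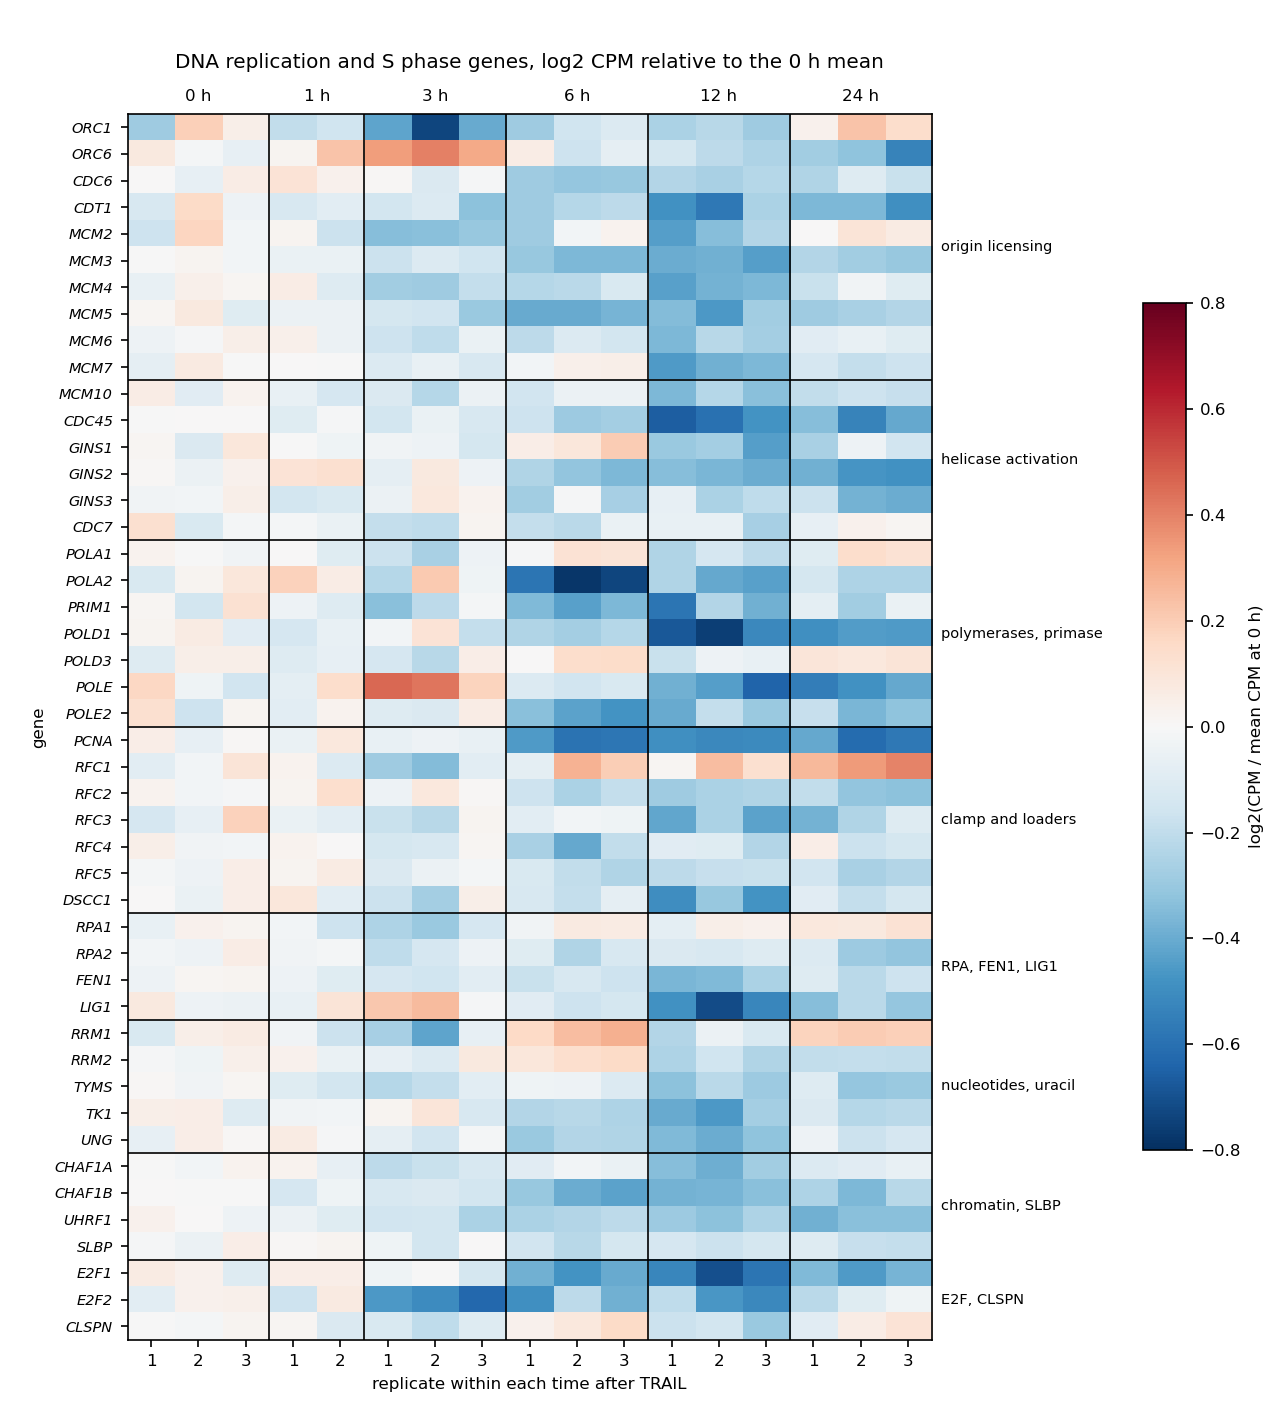
Log2 CPM of each of the 46 genes in each of the 17 libraries, relative to its mean at 0 h, with genes in rows grouped by role and libraries in columns ordered by time. Most rows are lowest in the 12 h columns, while RFC1 and RRM1 are above their 0 h mean after 24 h.

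The bases just before a RefSeq transcription start are shown for 9 of these genes. They are shown because most of the 46 were lower after 12 h and E2F factors bind such stretches in many S phase genes. Shown are PCNA, E2F1, E2F2, MCM6, POLE and CHAF1B, which were lower at 1 or more times, CDC7, which was called at none, and RRM1 and RFC1, which were higher at 1. Each stretch is the 120 bases before a RefSeq start in GRCh38.p14, written 5′ to 3′ on the strand of the gene. Capitals mark matches to the E2F letters TTTGGCGC, TTTCCCGC, TTTCGCGC and TTTGCCGC, and to the CCAAT box, CCAAT, each searched on both strands.
PCNA, chr20:5126623-5126742 (minus strand): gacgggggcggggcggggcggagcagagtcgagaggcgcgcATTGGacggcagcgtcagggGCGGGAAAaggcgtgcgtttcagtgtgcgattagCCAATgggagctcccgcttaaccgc
E2F1, chr20:33686386-33686505 (minus strand): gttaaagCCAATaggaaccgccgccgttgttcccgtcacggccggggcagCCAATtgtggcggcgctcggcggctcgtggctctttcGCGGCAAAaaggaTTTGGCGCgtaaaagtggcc
E2F2, chr1:23531234-23531353 (minus strand): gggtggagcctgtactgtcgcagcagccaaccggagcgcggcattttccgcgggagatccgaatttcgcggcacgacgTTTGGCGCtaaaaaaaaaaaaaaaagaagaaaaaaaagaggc
MCM6, chr2:135876444-135876563 (minus strand): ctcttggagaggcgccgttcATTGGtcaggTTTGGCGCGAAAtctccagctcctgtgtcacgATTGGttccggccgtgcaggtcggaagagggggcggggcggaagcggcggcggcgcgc
POLE, chr12:132687343-132687462 (minus strand): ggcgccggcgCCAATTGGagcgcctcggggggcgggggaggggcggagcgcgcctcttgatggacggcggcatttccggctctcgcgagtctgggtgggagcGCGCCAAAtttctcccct
CHAF1B, chr21:36385272-36385391 (plus strand): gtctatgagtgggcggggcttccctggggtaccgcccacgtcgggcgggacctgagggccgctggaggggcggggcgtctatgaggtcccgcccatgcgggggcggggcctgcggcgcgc
CDC7, chr1:91500992-91501111 (plus strand): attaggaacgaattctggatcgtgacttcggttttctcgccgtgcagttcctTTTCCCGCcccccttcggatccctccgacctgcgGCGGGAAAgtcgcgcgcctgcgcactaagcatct
RRM1, chr11:4094565-4094684 (plus strand): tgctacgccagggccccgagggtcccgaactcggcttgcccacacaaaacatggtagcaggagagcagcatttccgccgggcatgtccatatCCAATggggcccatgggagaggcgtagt
RFC1, chr4:39366363-39366482 (minus strand): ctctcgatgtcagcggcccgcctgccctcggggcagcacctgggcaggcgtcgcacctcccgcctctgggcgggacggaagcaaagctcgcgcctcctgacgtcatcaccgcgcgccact

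The stretches before PCNA, E2F2 and POLE hold 1 E2F match each and those before E2F1, MCM6 and CDC7 hold 2, which overlap in MCM6. The stretches before CHAF1B, RRM1 and RFC1 hold none. CCAAT letters lie in the stretches of PCNA, E2F1, MCM6, POLE and RRM1, and those of POLE overlap on the opposite strands. CHAF1B was lower at 3 times with no E2F match in its stretch. CDC7, called at no time, has 2 RefSeq windows, and the other, which lies nearer the GENCODE start, holds no E2F match. PCNA also has a second window with none. A match is a description of the letters and does not show binding.

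Over the 250 bases before the start, 17 of the 41 genes with a RefSeq window held an E2F match, 41.5%, against 5.63% of the 10563 tested genes with a window and 3.399% of all 27305 genes with one. MCM4, MCM5, POLD3, RPA2 and DSCC1 had no window. Of the 31 genes with a window that were lower after 12 h, 15 held an E2F match, and of the 10 that were not, 2 did. CCAAT boxes were found in 61.0% of the 41 genes and in 41.4% of the tested genes. The letters TTTGAA, the CHR element known from G2 and mitosis genes, were found in 2 of the 41 genes, 4.88%, in 11.8% of the tested genes, and in 61.1% of the 18 G2 and mitosis genes with a window.

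Of the E2F factors themselves, E2F1, an activator of S phase genes (chr20:33675683-33686404), was measured at 158, 155 and 141 CPM at 0 h and at 157 in both libraries at 1 h. It stood at 148, 151 and 137 CPM after 3 h, 116, 109 and 115 after 6 h, 106, 92.96 and 101 after 12 h, and 119, 111 and 117 after 24 h. From 6 h on, every library lay below all those at 0, 1 and 3 h. E2F1 was lower after 6 h, with a log2 fold change of -0.42 ± 0.061 (SE) and an adjusted p of 7.28e-05 in edgeR's quasi-likelihood test. This was -0.60 ± 0.061 after 12 h (adjusted p = 4.15e-06) and -0.39 ± 0.061 after 24 h (adjusted p = 0.000124, edgeR).

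E2F2, a second activator, was the lowest of the 46 at 0 h per kb of transcript, with 2.69 CPM per kb (chr1:23506430-23531220). It was at 13.2, 14.3 and 14.4 CPM at 0 h, 12.5 and 14.7 at 1 h and 10.2, 9.86 and 9.03 after 3 h. It was at 9.92, 12.1 and 10.7 CPM after 6 h, 12.1, 10.1 and 9.77 after 12 h, and 12.0, 13.1 and 13.6 after 24 h. The 3 h libraries were thus the lowest as a group and lay below those at 0 and 1 h without overlap. E2F2 had the most negative log2 fold change of the 46 after 3 h, -0.53 ± 0.11 (SE), with an adjusted p of 0.0025 in edgeR. CLSPN, the mediator that carries the replication checkpoint signal from ATR to CHEK1, was lower after 12 h only, from 80.6 ± 0.989 to 70.0 ± 3.82 CPM, with a log2 fold change of -0.20 (adjusted p = 0.0436, edgeR). That call was lost when any 1 of the 6 libraries at 0 or 12 h was left out, with library size alone (adjusted p = 0.127) and with no filter on low counts (adjusted p = 0.095).

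Among the origin recognition and licensing genes, 5 of 10 were lower and 1 higher after 3 h, 6 were lower after 6 h, 8 after 12 h and 6 after 24 h. ORC1, the largest subunit of the origin recognition complex (chr1:52372829-52404459), was at 18.2, 25.2 and 22.8 CPM at 0 h, 19.24 and 19.7 at 1 h, 16.5, 13.3 and 16.7 after 3 h and 18.1, 19.8 and 20.5 after 6 h. It was at 18.5, 18.9 and 18.2 CPM after 12 h and at 22.7, 25.9 and 24.4 after 24 h. The 3 h libraries lay below all others and the 24 h libraries overlapped those at 0 h. ORC1 fell after 3 h with a log2 fold change of -0.51 ± 0.11 (SE, adjusted p = 0.00345, edgeR) and was called at no other time against 0 h. ORC6, a small subunit of the same complex (chr16:46689643-46698394), was at 37.4, 34.9 and 33.9 CPM at 0 h, 36.0 and 41.4 at 1 h, and 44.6, 46.8 and 43.7 after 3 h. It then stood at 36.9, 31.6 and 33.7 CPM after 6 h, 32.2, 30.7 and 29.9 after 12 h, and 29.2, 28.3 and 24.5 after 24 h. Its 3 h libraries were the highest and its 24 h libraries the lowest, each without overlap with 0 h. ORC6 rose after 3 h by 0.35 ± 0.080 on the log2 scale (adjusted p = 0.0058) and was lower after 24 h, with a log2 fold change of -0.37 ± 0.082 (adjusted p = 0.00198, edgeR).

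The MCM genes encode the 6 subunits of the helicase ring, and all 6 were lower after 12 h, with log2 fold changes of -0.28 in MCM6 to -0.41 in MCM3. Before and after 12 h they differed in their calls. MCM3 and MCM5 were lower at every time from 3 h on. The MCM3 call after 3 h was lost without any single library at 0 or 3 h and with no filter on low counts (adjusted p = 0.0886, edgeR). That of MCM5 was lost without replicate 1 or 2 at 0 h or replicate 3 at 3 h, and both with only the 2 times fitted. MCM3, the third highest of the 46 per kb at 0 h with 176 CPM per kb (chr6:52264009-52284881), was at 560.4, 571 and 552 CPM at 0 h, 541 and 541 at 1 h, 498, 519 and 503 after 3 h, and 454, 438 and 437 after 6 h. It was at 427, 429 and 414 CPM after 12 h and at 477, 463 and 454 after 24 h. The times from 3 h on did not overlap with 0 h, and the log2 fold change after 12 h was -0.41 ± 0.047 (SE, adjusted p = 1.56e-05, edgeR).

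MCM7 was at 389, 429.9 and 409 CPM at 0 h, 411 and 408 at 1 h, 380.0, 393 and 375 after 3 h and 403, 422 and 422 after 6 h (chr7:100092728-100101940). It dropped to 299, 313 and 319.9 CPM after 12 h and was at 373, 358 and 366 after 24 h. The 12 h libraries lay below every other library and the 6 h libraries overlapped those at 0 h. The log2 fold change of MCM7 was 0.02 after 6 h, -0.40 ± 0.051 after 12 h (adjusted p = 5.18e-05) and -0.16 ± 0.051 after 24 h (adjusted p = 0.0179, edgeR). Its 24 h call was lost without replicate 2 at 0 h or replicate 2 or 3 at 24 h. It was also lost with no filter, with only the 2 times fitted and with library size alone (adjusted p = 0.201, edgeR). MCM2 was at 93.6, 118 and 104 CPM at 0 h, 107 and 93.3 at 1 h, 83.3, 83.4 and 85.4 after 3 h, 86.3, 104 and 107 after 6 h, 77.4, 83.3 and 89.3 after 12 h and 105, 113 and 110.1 after 24 h. It was low at 3 and 12 h, without overlap with 0 h, and overlapped 0 h at 6 and 24 h. Its log2 fold change was -0.32 after 3 h (adjusted p = 0.0148) and -0.34 after 12 h (adjusted p = 0.0157). Without replicate 2 at 0 h these were -0.23 (adjusted p = 0.101) and -0.24 (adjusted p = 0.104), in edgeR. The first call was also lost without replicate 1 or 2 after 3 h, and the second without replicate 1 or 2 after 12 h. The counts of MCM2 were not whole in 17 libraries and those of MCM7 in 16, which arises where fragments are divided between genes, so their values are less certain.

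MCM4 was at 182, 195 and 192 CPM at 0 h, 198 and 176 at 1 h, 156, 156 and 166 after 3 h and 162, 163 and 174 after 6 h. It was at 140.3, 146 and 148 CPM after 12 h and 168, 186 and 178 after 24 h. Its libraries from 3 to 12 h lay below those at 0 h, and those at 24 h overlapped with them. MCM4 was lower after 12 h, with a log2 fold change of -0.39 (adjusted p = 0.00025), and rose from 12 to 24 h by 0.29 ± 0.058 on the log2 scale (adjusted p = 0.00401, edgeR).

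Licensing also needs CDC6 and CDT1, which bring the ring to the origin, and both were lower at 6, 12 and 24 h. CDC6 went from 132 ± 5.82 CPM at 0 h to 107 ± 0.972 after 6 h and 111 ± 1.37 after 12 h. CDT1 went from 41.3 ± 4.18 CPM at 0 h to 34.9 ± 0.902 after 6 h, 30.7 ± 3.59 after 12 h and 31.2 ± 1.63 after 24 h. The libraries of these times did not overlap with those at 0 h in either gene. The CDT1 call after 6 h was lost without replicate 2 or 3 at 0 h or any single 6 h library. That of CDC6 after 24 h was lost without replicate 1 or 3 at 0 h or replicate 1 or 3 after 24 h. It also went with no filter (adjusted p = 0.0851) and with library size alone (adjusted p = 0.21, edgeR).

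Of the 6 genes that activate the helicase, 0 were called after 3 h, 2 were lower after 6 h, 4 after 12 h and 4 after 24 h. CDC45, which holds the active helicase together with GINS (chr22:19479459-19520612), was at 58.7, 58.9 and 58.8 CPM at 0 h, 54.9 and 58.3 at 1 h, 53.2, 56.6 and 53.8 after 3 h and 52.3, 48.1 and 48.6 after 6 h. It was at 37.3, 38.9 and 42.2 CPM after 12 h and 46.4, 40.7 and 44.2 after 24 h. All libraries from 3 h on were below those at 0 h, and those after 12 h and 6 h did not overlap. Its log2 changes were -0.24 ± 0.065 after 6 h, -0.57 ± 0.066 after 12 h (adjusted p = 1.5e-05) and -0.43 ± 0.066 after 24 h (SE, edgeR).

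The GINS genes, subunits of 1 complex, were called at different times. GINS2 was lower at 6, 12 and 24 h, with means of 42.2 ± 1.28 CPM at 0 h, 34.2 ± 1.47 after 6 h, 32.7 ± 0.676 after 12 h and 31.0 ± 1.23 after 24 h. GINS1 was lower after 12 h alone, at 28.4 ± 1.76 CPM against 35.8 ± 2.63 at 0 h and 38.8 ± 2.09 after 6 h (SD, n = 3 each). GINS3 was lower after 24 h alone, at 14.6 ± 1.31 CPM against 18.1 ± 0.535 at 0 h, and its counts were not whole in 15 libraries. Whether the subunits differed from one another in their changes was not tested.

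CDC7, the kinase that fires licensed origins, was at 31.7, 26.7 and 28.8 CPM at 0 h, 27.9, 27.9 and 24.2 after 12 h and 27.8, 29.7 and 29.4 after 24 h. Its libraries overlapped with 0 h at every time, and its log2 fold changes from 3 h on ran from -0.15 ± 0.085 after 6 h to -0.01 ± 0.085 after 24 h. MCM10, which binds the helicase as it starts, was at 57.5 ± 2.74 CPM after 12 h and 62.7 ± 0.798 after 24 h against 71.2 ± 3.78 at 0 h. It was called lower at both times, but the 24 h call was lost without any single 24 h library. That call also went without replicate 1 or 3 at 0 h, with no filter and with library size alone (adjusted p = 0.228, edgeR).

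Among the polymerase and primase genes, 1 of 7 was higher and 0 lower after 3 h, and 4 were lower after 6 h, 5 after 12 h and 3 after 24 h. POLA2, a regulatory subunit of the polymerase alpha and primase complex (chr11:65261762-65305589), was at 20.7, 22.9 and 24.0 CPM at 0 h, 25.6 and 23.5 at 1 h and 19.21, 26.0 and 21.9 after 3 h. It fell to 14.98, 13.1 and 13.5 CPM after 6 h and was at 19.1, 16.9 and 16.7 after 12 h and 20.4, 19.0 and 18.9 after 24 h. The 6 h libraries were the lowest, with no overlap with any other time. POLA2 had the most negative log2 fold change of the 46 after 6 h, -0.70 ± 0.10 (SE, adjusted p = 7.72e-05), and was the only member called higher from 6 to 12 h, by 0.34 ± 0.10 on the log2 scale (adjusted p = 0.0266, edgeR). That rise was not called with replicates 2 and 3 after 6 h averaged, nor without replicate 2 or 3 after 6 h or replicate 1 at 12 h. The counts of POLA2 were not whole in any of the 17 libraries.

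POLD1, the catalytic subunit of polymerase delta (chr19:50384204-50418016), was at 107, 110.3 and 99.0 CPM at 0 h, 96.1 and 101 at 1 h, 104, 114 and 92.4 after 3 h and 89.3, 87.5 and 90.2 after 6 h. It was at 66.0, 62.5 and 73.9 CPM after 12 h and at 75.2, 77.5 and 77.0 after 24 h. The libraries at 12 and 24 h lay below all earlier ones. Its change after 12 h, -0.65 ± 0.072 (SE, adjusted p = 1.15e-05, edgeR), was the most negative of the 46 at that time, and that after 24 h was -0.46 ± 0.072 (adjusted p = 0.000122). The subunit POLD3 was called at no time against 0 h, with 50.3 ± 2.93 CPM at 0 h, 47.2 ± 2.40 after 12 h and 53.7 ± 0.409 after 24 h.

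POLE, the catalytic subunit of polymerase epsilon (chr12:132623753-132687365), first rose and then fell. It was at 149, 129.6 and 119 CPM at 0 h, 126 and 146 at 1 h and 182, 178 and 150.1 after 3 h. It was at 123, 119 and 122 CPM after 6 h, 102, 97.8 and 84.9 after 12 h, and 90.3, 94.8 and 99.8 after 24 h. The 3 h libraries lay above and the 12 and 24 h libraries below all those at 0 h. On the log2 scale its change was 0.36 ± 0.088 after 3 h (adjusted p = 0.00841), -0.48 ± 0.089 after 12 h (adjusted p = 0.00177) and -0.48 ± 0.089 after 24 h (adjusted p = 0.000578, edgeR). The rise after 3 h was 0.29 without replicate 3 at 0 h, with an adjusted p of 0.0595. POLE2, the second subunit, was not called after 3 h. Its log2 fold change was -0.05 after 3 h and -0.41 ± 0.084 after 6 h, where it went from 45.6 ± 4.58 to 34.3 ± 1.71 CPM.

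PRIM1, the catalytic primase subunit, was lower at 6 and 12 h, at 21.5 ± 0.639 and 21.3 ± 2.57 CPM against 28.0 ± 2.58 at 0 h, and its counts were not whole in 16 libraries. POLA1, the catalytic subunit of polymerase alpha, was not called against 0 h. It was at 67.5 ± 1.33 CPM at 0 h, 59.1 ± 2.16 after 12 h and 70.2 ± 6.13 after 24 h, and its 12 h libraries lay below those at 0 h with an adjusted p of 0.078 (edgeR).

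PCNA, the ring that tethers polymerases to DNA and the member with the highest level per kb at 0 h, 239.8 CPM per kb, stepped down once (chr20:5114953-5126626). It was at 336, 309 and 327 CPM at 0 h, 312 and 344 at 1 h and 311, 315 and 311 after 3 h. It was at 237, 215 and 217 CPM after 6 h, 231, 226 and 228 after 12 h and 244, 212 and 218 after 24 h. Every library from 6 h on lay below every earlier one. Its log2 fold changes were -0.54 ± 0.061 after 6 h (adjusted p = 4.33e-06), -0.51 ± 0.0605 after 12 h (adjusted p = 2.23e-05) and -0.53 ± 0.061 after 24 h (adjusted p = 5.53e-06, edgeR). PCNA had the most negative change of the 46 after 24 h and was called in neither direction from 6 to 12 h or from 12 to 24 h.

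The clamp loader genes were also called at different times. RFC2, RFC3 and RFC5, small subunits of the loader that opens PCNA, were lower at 12 and 24 h, RFC2 from 107 ± 2.00 CPM at 0 h to 89.5 ± 1.36 after 12 h and 88.4 ± 4.52 after 24 h. RFC4 was lower after 6 h alone, at 61.9 ± 4.53 against 75.4 ± 2.22 CPM at 0 h. The libraries of RFC3 after 24 h overlapped with those at 0 h despite its call. That call was lost without replicate 2 or 3 at 0 h or replicate 1 or 2 after 24 h. It also went with library size alone (adjusted p = 0.194, edgeR). The RFC5 call after 12 h was lost without replicate 1 or 3 at 0 h or any single 12 h library. No filter, library size alone and a fit of only the 2 times ended it too. The counts of RFC5 were not whole in any of the 17 libraries. RFC1, the large subunit (chr4:39287456-39366375), was at 56.4, 59.0 and 64.4 CPM at 0 h, 61.2 and 55.5 at 1 h, 49.3, 47.1 and 56.6 after 3 h and 56.9, 72.6 and 68.8 after 6 h. It was at 60.6, 71.0 and 65.6 CPM after 12 h and at 71.6, 76.0 and 78.9 after 24 h, above every 0 h library. RFC1 rose after 24 h by 0.33 ± 0.089 on the log2 scale (adjusted p = 0.00734, edgeR) and had the highest log2 fold change of the 46 at that time. DSCC1, part of an alternative clamp loader used in cohesion, was lower after 12 h alone, at 17.5 ± 1.30 against 23.5 ± 0.891 CPM.

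**Figure D4:**
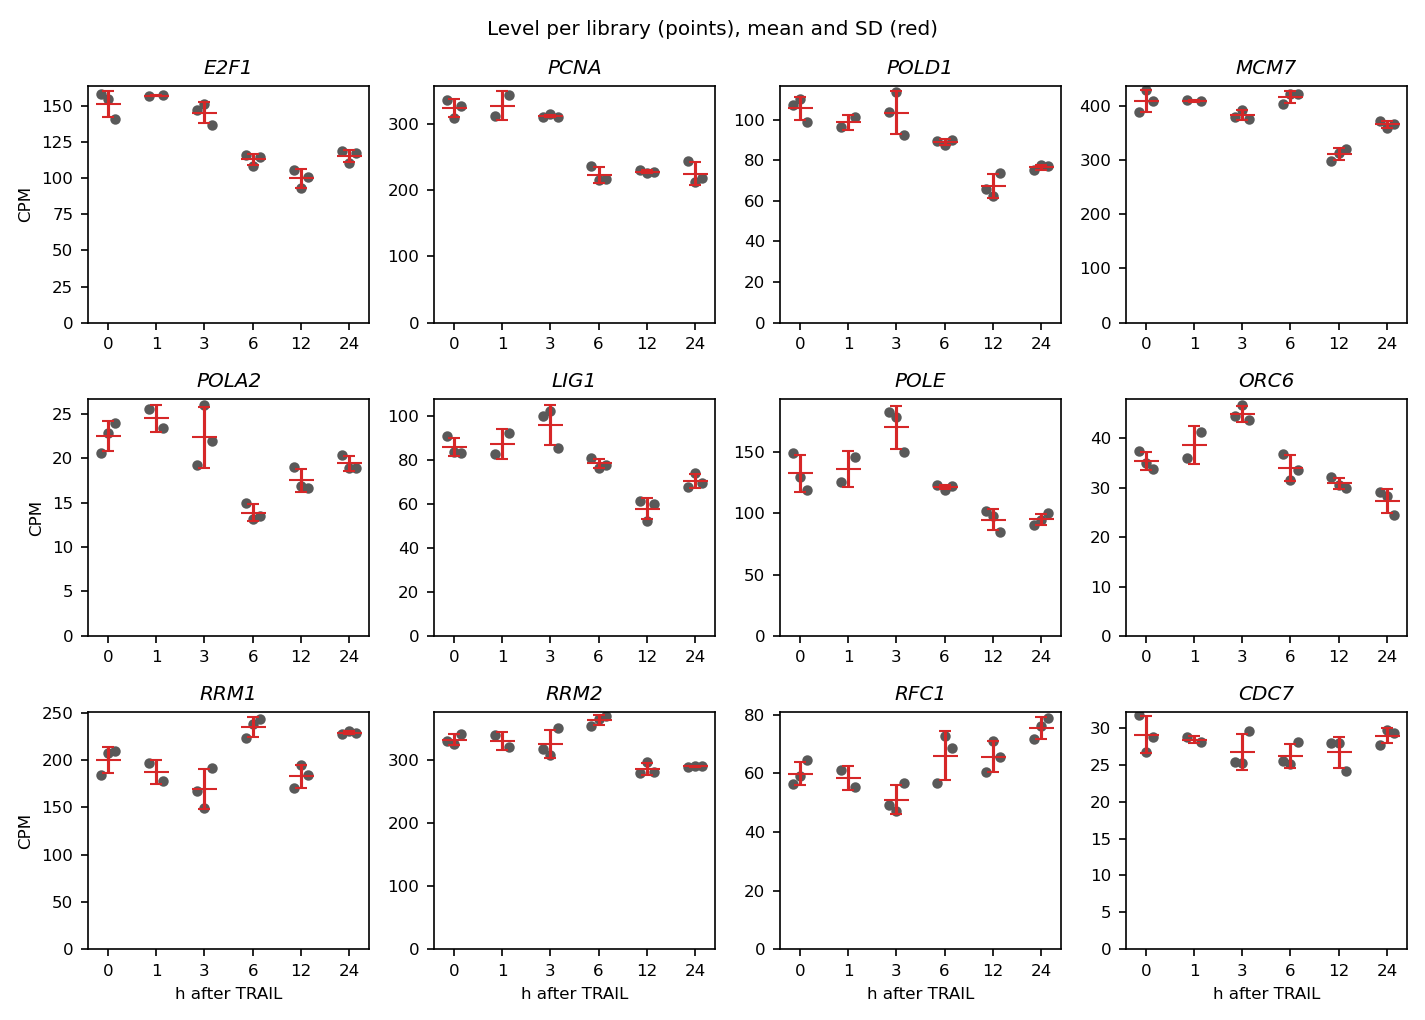
Level in CPM of 12 of the replication genes against hours after TRAIL; grey points are libraries, red marks the mean and SD of each time, and each panel has its own axis from 0. PCNA steps down after 6 h, MCM7 and RRM2 are lowest after 12 h, POLE is highest after 3 h, and RFC1 is highest after 24 h.

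Of the 4 genes for single-strand binding and lagging-strand joining, FEN1, which trims Okazaki fragment flaps, was lower at 6, 12 and 24 h, from 169 ± 4.10 CPM at 0 h to 135 ± 6.04 after 12 h. LIG1, the ligase that seals the fragments (chr19:48115445-48170603), was at 90.8, 83.8 and 83.4 CPM at 0 h, 82.7 and 92.3 at 1 h, 99.9, 102 and 85.6 after 3 h and 80.8, 76.6 and 77.9 after 6 h. It was at 61.6, 52.3 and 59.8 CPM after 12 h and 67.9, 74.1 and 69.5 after 24 h. The 12 h libraries were the lowest, and those at 12 and 24 h did not overlap with any earlier time. LIG1 fell after 12 h with a log2 fold change of -0.57 ± 0.076 (SE, adjusted p = 6.5e-05, edgeR), and after 24 h it was -0.29 ± 0.075 (adjusted p = 0.00621). The single-strand binding subunits RPA1 and RPA2 were each called at 1 time against 0 h. RPA1 was lower after 3 h, at 172 ± 9.79 against 201 ± 7.01 CPM, and stood at 201 ± 9.10 after 12 h. Its 24 h libraries, at 213, 212 and 218 CPM, lay above all those at 0 h, but the change was not called. RPA2 was lower after 24 h, at 90.1 ± 7.22 against 106 ± 4.08 CPM.

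Among the nucleotide genes the 2 subunits of ribonucleotide reductase, which makes deoxynucleotides, had their highest means after 6 h. RRM1, the large subunit (chr11:4094707-4138876), was at 185, 207 and 210.0 CPM at 0 h, 197 and 178 at 1 h, 167, 149.8 and 192 after 3 h and 224, 238 and 244 after 6 h. It was at 171, 195 and 185 CPM after 12 h and 228, 231 and 229 after 24 h. The libraries at 6 and 24 h lay above all those at 0 h. RRM1 was called lower at 3 h, with a log2 fold change of -0.24 ± 0.077 (adjusted p = 0.0342, edgeR), although 1 of the 3 h libraries lay within the range at 0 h. It rose by 0.23 ± 0.076 on the log2 scale after 6 h (adjusted p = 0.0279, edgeR), and the change after 24 h was 0.19 ± 0.076 with an adjusted p of 0.0561. The call after 6 h was lost without replicate 1 at 0 h (0.17, adjusted p = 0.142), without replicate 2 at 6 h (0.22, adjusted p = 0.0817), without replicate 3 at 6 h (0.20, adjusted p = 0.11), with those averaged (0.20, adjusted p = 0.126) and with library size alone (adjusted p = 0.0501), all in edgeR.

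RRM2, the subunit whose level sets the enzyme's activity in S phase (chr2:10120698-10131419), was at 331, 325 and 342 CPM at 0 h, 341 and 320.4 at 1 h, 318, 309 and 351 after 3 h and 355, 366 and 370.0 after 6 h. It was at 280.1, 298 and 282 CPM after 12 h and at 289.9, 291 and 290.4 after 24 h. The 6 h libraries were the highest and did not overlap with 0 h, yet the change after 6 h was not called, with an adjusted p of 0.0793. Against 0 h it changed by -0.22 ± 0.054 on the log2 scale after 12 h (adjusted p = 0.0136) and -0.20 ± 0.054 after 24 h (adjusted p = 0.00862, edgeR). The other genes of this group include TYMS, which makes thymidylate, TK1, which salvages thymidine, and UNG, which removes uracil from DNA, and all 3 were lower after 12 h. TK1 went from 209 ± 12.4 CPM at 0 h to 161 ± 10.9 after 12 h, UNG from 115 ± 4.87 to 89.8 ± 2.27, and TYMS from 305 ± 4.89 to 251 ± 10.0. The counts of TYMS were not whole in any of the 17 libraries. TK1 was called lower at 24 h at -0.18 on the log2 scale, and with the length and GC trends of the libraries removed its change was 0.022 (adjusted p = 0.72, edgeR). The same offsets moved TK1 after 6 h from -0.23 to -0.054 (adjusted p = 0.342) and from 3 to 6 h from -0.23 to -0.0054 (adjusted p = 0.934, edgeR). The call after 24 h was also lost without replicate 1 or 2 at 0 h or replicate 2 or 3 after 24 h.

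Of the genes that package new DNA, CHAF1A and CHAF1B, subunits of the assembly factor that places histones behind the fork, UHRF1, which recruits maintenance methylation, and SLBP, which binds histone mRNA, 3 were lower after 6 h, 3 after 12 h and 3 after 24 h. CHAF1B (chr21:36385378-36419015) was at 54.5, 54.3 and 54.4 CPM at 0 h, 44.2, 41.4 and 40.4 after 6 h, 41.9, 42.1 and 43.2 after 12 h and 45.8, 42.4 and 46.6 after 24 h. It was below 0 h without overlap at each of these times, with log2 fold changes of -0.37, -0.36 and -0.28 (adjusted p from 0.000171 to 0.00167, edgeR). UHRF1 declined from 3 h on, from 245 ± 6.11 CPM at 0 h to 215 ± 8.79 after 3 h, 208 ± 3.12 after 6 h, 201 ± 5.68 after 12 h and 192 ± 3.88 after 24 h, and was called lower at all 4 times, but its counts were not whole in any of the 17 libraries. CHAF1A was lower at 3 and 12 h, at 71.9 ± 1.93 and 64.2 ± 2.58 against 81.0 ± 1.499 CPM at 0 h, and stood at 76.3 ± 1.44 after 24 h. Its call after 3 h was lost without any single library at 0 h, without replicate 1 or 2 at 3 h and with no filter on low counts. SLBP was lower at 6 and 24 h and after 12 h had an adjusted p of 0.0695. With the length and GC trends removed, its changes were -0.093 after 6 h (adjusted p = 0.107) and -0.091 after 24 h (adjusted p = 0.108, edgeR). Both calls were also lost with no filter and without replicate 3 at 0 h. That after 24 h further went with library size alone (adjusted p = 0.236, edgeR) and without replicate 1 at 0 h or replicate 2 or 3 after 24 h.

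Successive times were also compared with each other. From 1 to 3 h, 2 of the 46 genes were lower, MCM4 and E2F2, and 0 higher, against 2.56% and 3.17% of all genes. From 3 to 6 h, 17 were lower and 9 higher, against 20.3% and 22.9%. The 9 were ORC1, MCM2, POLA1, POLD3, RFC1, RPA1, RRM1, RRM2 and CLSPN, with RRM1 highest at 0.47 ± 0.077 (adjusted p = 0.00014), and the 17 were led by POLA2 at -0.69 ± 0.10, POLE at -0.49 ± 0.088 and PCNA at -0.49 ± 0.061 on the log2 scale (edgeR). Beside this split, the length slope of the libraries went from -0.10 after 3 h to 0.070 after 6 h. With the trends of length and GC content removed, 14 were lower and 6 higher, and of the 9 named genes only ORC1, RFC1, RPA1 and RRM1 were still called. POLA1 then stood at 0.016, POLD3 at 0.063, RRM2 at 0.057, CLSPN at 0.088 and MCM2 at 0.19 on the log2 scale, and RFC2, RFC4, TK1 and UNG were no longer called lower. The count of 9 was 4 with replicates 2 and 3 averaged at 6 h, and 4 without replicate 2 at 3 h, replicate 2 at 6 h or replicate 3 at 6 h.

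From 6 to 12 h, 19 of the 46 genes were lower and 1 higher, against 11.9% and 8.70% of all genes. MCM7 (-0.42 ± 0.051, adjusted p = 1.45e-05), GINS1 (-0.45 ± 0.077, adjusted p = 0.00044), LIG1 (-0.44 ± 0.076, adjusted p = 0.000467) and RRM2 (-0.34 ± 0.054, adjusted p = 0.000205) were among them in edgeR. Every 12 h library lay below every 6 h library for 23 of the 46, against 20.1% of all genes. Of the 19, 14 had not been called lower at 6 h than at 0 h, among them MCM2, MCM7, POLE, LIG1, RRM1, RRM2 and TYMS. The count of 19 was 11 with replicates 2 and 3 averaged at 6 h, 12 without replicate 2 at 6 h, 11 without replicate 3 at 6 h and 12 without replicate 1 at 12 h.

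From 12 to 24 h, 14 of the 46 genes were higher and 0 lower, against 6.42% and 5.60% of all genes, and for 22 every 24 h library lay above every 12 h library, a pattern of 15.8% of all genes. The 14 were ORC1, MCM2, MCM4, MCM6, MCM7, POLA1, DSCC1, FEN1, LIG1, RRM1, UNG, CHAF1A, E2F1 and CLSPN, of which 11 had been lower after 12 h than at 0 h. MCM2 rose by 0.39 ± 0.086 on the log2 scale (adjusted p = 0.00741) and ORC1 by 0.39 ± 0.10 (adjusted p = 0.0204, edgeR). PCNA, POLD1, CDC45, GINS2 and TK1, lower after 12 h, were not called from 12 to 24 h. The count of 14 was 5 with replicates 2 and 3 averaged at 24 h, 8 with the 2 times fitted alone, 7 without replicate 1 at 12 h and 6 without replicate 2 or replicate 3 at 24 h. MCM2, MCM4, MCM7, UNG and CHAF1A were called higher from 12 to 24 h under all 16 alternatives tried.

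How far the calls against 0 h held differed between times. Of the 12 calls after 3 h, 4 were made under all 16 alternatives (ORC1, ORC6, MCM4 and E2F2), and of the 25 after 6 h, 14. At 12 h it was 25 of 34 calls, POLD1, E2F1, LIG1, PCNA, CDC45 and MCM7 among them, and after 24 h it was 17 of 28. The count of 10 lower genes after 3 h was 5 without replicate 2 at 0 h, 6 without replicate 1 at 3 h, 5 without replicate 2 at 3 h and 19 with library size in place of TMM. Library size alone gave 31 lower and 0 higher after 12 h, and 18 lower and 3 higher after 24 h. With the length and GC trends removed, 40 were lower after 12 h and 30 after 24 h.

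Another 64 genes of DNA replication and S phase were also listed by function. At 6 h 12 were lower and 9 higher, 18.8% and 14.1% of the list, against 13.2% and 16.9% of all genes. After 12 h 16 were lower and 1 higher, 25.0% and 1.56%, against 6.48% and 5.96%. After 24 h 15 were lower and 6 higher, 23.4% and 9.38%, against 17.1% and 18.0%. The 3 times had medians of -0.0078, -0.12 and -0.040 on the log2 scale. DUT, which keeps uracil out of the nucleotide pool, was at 90.4 ± 2.28 CPM at 0 h and 61.9 ± 3.02 after 12 h, a log2 fold change of -0.55 ± 0.066 (adjusted p = 2.57e-05, edgeR). RECQL4, a helicase that takes part in origin firing, went from 146 ± 19.9 to 97.1 ± 8.36 CPM after 12 h and 85.9 ± 5.06 after 24 h. The counts of DUT, RECQL4 and CCNA2 were not whole in any of the 17 libraries. TOP1, which relaxes DNA ahead of the fork, rose from 149 ± 8.52 CPM to 202 ± 6.81 after 6 h and 197 ± 9.28 after 12 h. CCNA2, the cyclin of S and G2 phase, rose after 6 h from 143 ± 6.94 to 187 ± 10.5 CPM, and E2F8, a repressor among the E2F factors, was lower after 3 h, at 28.97 ± 1.31 against 40.6 ± 3.29 CPM. The count of 16 lower after 12 h was 6 without replicate 2 at 12 h, 8 without replicate 1 at 0 h, at most 10 without any other single library at these times, and 32 with the length and GC trends removed.

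The 24 genes of G2 and mitosis listed for comparison were called higher more often than lower at these times. At 6 h 15 were higher and 0 lower, 62.5% of the list higher, against 16.9% of all genes. After 12 h 11 were higher and 2 lower, 45.8% and 8.33%, against 5.96% and 6.48% of all genes. After 24 h 11 were higher and 3 lower, 45.8% and 12.5%, against 18.0% and 17.1%, with the 3 times at medians of 0.28, 0.19 and 0.15 on the log2 scale. MKI67, a marker of cycling cells, was at 380.0 ± 22.5 CPM at 0 h and 593 ± 68.5 after 6 h, with a log2 fold change of 0.64 ± 0.095 (adjusted p = 0.000116, edgeR). PLK1, a mitotic kinase, went from 80.3 ± 8.43 to 117 ± 7.86 CPM after 6 h, and AURKA, a kinase of the spindle poles, from 179.8 ± 6.02 to 251 ± 14.6 after 12 h. AURKB, a kinase of the chromosome passenger complex, was lower after 12 h, with a log2 fold change of -0.34 (adjusted p = 0.004, edgeR). Whether the 46 replication genes differed from these genes as a list was not tested. The calls of this list, and of the CDK inhibitors below, were not counted under the alternatives. Offsets for length and GC content and averaged replicates are among those.

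Of 5 CDK inhibitor genes, CDKN1A, which encodes p21, was at 112 ± 8.79 CPM at 0 h, 151 ± 1.36 after 3 h and 218 ± 2.99 after 6 h, and at 112 ± 5.41 after 12 h. It rose by 0.43 ± 0.057 on the log2 scale after 3 h and 0.96 ± 0.057 after 6 h (adjusted p = 1.24e-09, edgeR) and was not called at 12 or 24 h. CDKN2C was lower at 6, 12 and 24 h, and CDKN2B had 0 counts in every library.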

How the data were processed

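The deposited table holds gene-level expected counts of 17 libraries, estimated by the authors with RSEM per the file name. Reads were trimmed with cutadapt 1.18 and aligned with STAR 2.7.0f to hg38, per the submitters' processing notes. The gene annotation used, and whether counting took strand into account, are not given in the sources used here. Per the labels' protocols, a stranded mRNA kit and paired-end reads were used. Of the deposited values 10.8% were not whole, and all were rounded here. A low-count filter (filterByExpr) left 15365 genes, scaled by TMM and tested with edgeR 4.0.16 in R 4.3.3 (quasi-likelihood, a mean per time over all 17 libraries, Benjamini-Hochberg adjustment, threshold 0.05). Levels are CPM on TMM-scaled totals, given as mean ± SD, and levels per kb use GENCODE 29 transcript lengths. Gene positions are those of GENCODE 29 on GRCh38, written 1-based. Total counts of 13731520 to 19234924 per library set the precision. The code was tested on simulated data.

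Alternatives were RLE scaling, library size alone, no filter, a mean count of at least 10, a replicate block, offsets for length and GC content, averaged near-identical libraries, only the 2 times compared, DESeq2 1.42.0, limma 3.58.1 (voom), and each library left out. The replication genes and the other lists were chosen by function, with earlier results of these data known. Values in every library are given for the 3 highest and 3 lowest log2 fold changes called at each time against 0 h, and for others chosen after their values were seen. Genes of the other lists were named from the 2 highest and 2 lowest called at a time. Promoter letters came from RefSeq (GRCh38.p14).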

Additional observations from a re-analysis of the deposited data

How the results depend on the processing

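The counts of replication genes lower at 6, 12 and 24 h differed by no more than 1.5 times under the 16 alternatives. With library size alone, 19 were lower at 3 h instead of 10, 0 were higher at 6 h, 3 higher at 24 h, and 1 lower from 1 to 3 h. The other replication genes then gave 18 lower and 4 higher at 3 h, 10 lower at 12 h, and 9 lower and 14 higher at 24 h. Library size alone also moved the lower share of all calls from 49.1% to 70.2% at 3 h, from 52.1% to 41.3% at 12 h, from 48.7% to 33.2% at 24 h, from 46.9% to 36.2% from 3 to 6 h, from 57.8% to 42.9% from 6 to 12 h and from 46.6% to 33.1% from 12 to 24 h. With only the 2 times fitted, 5 were lower at 3 h, 2 higher at 24 h, 0 lower from 1 to 3 h and 8 higher from 12 to 24 h, and of the other replication genes 5 were lower at 3 h. With near-identical libraries averaged, 0 were higher at 6 h, 1 lower from 1 to 3 h, 4 higher from 3 to 6 h, 11 lower and 0 higher from 6 to 12 h and 5 higher from 12 to 24 h. The other replication genes then gave 6 lower and 5 higher at 6 h and 2 higher at 24 h. DESeq2 gave 2 higher at 6 h and 1 from 1 to 3 h. With no filter, 2 were higher at 24 h, 1 from 1 to 3 h, and 10 other replication genes were lower at 12 h. RLE scaling gave 1 lower and 1 higher from 1 to 3 h. With offsets for length and GC, the other replication genes gave 21 lower at 6 h, 32 lower and 2 higher at 12 h and 26 lower at 24 h, and TK1 at 24 h turned from -0.18 to 0.022. The cause of these shifts was not tested.

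Leaving out 1 library gave 5 to 10 replication genes lower and 1 to 3 higher at 3 h, 18 to 23 lower and 0 to 2 higher at 6 h, 28 to 32 lower at 12 h, and 19 to 25 lower and 1 higher at 24 h. It gave 1 lower and 0 to 1 higher from 1 to 3 h, 15 to 17 lower and 4 to 10 higher from 3 to 6 h, 11 to 19 lower and 0 to 1 higher from 6 to 12 h, and 0 to 1 lower and 6 to 12 higher from 12 to 24 h. Between 42 and 45 changed over all times. Of the other replication genes, 3 to 12 were lower and 3 to 8 higher at 3 h, 6 to 11 lower and 6 to 12 higher at 6 h, 6 to 10 lower and 1 higher at 12 h, and 11 to 14 lower and 2 to 9 higher at 24 h.

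Same-numbered libraries had a mean correlation of 0.0091, with 8 of 40 pairs over 0.1. Libraries of different numbers had -0.0045, with 14 of 80. Of the 17 libraries, 10 were closest to one of their own number, and whether the numbers pair the libraries was not tested. The replicate block gave 33 lower at 12 h, 2 higher at 24 h and 1 higher from 1 to 3 h, and ended the calls of CLSPN at 12 h (adjusted p = 0.0519) and FEN1 from 12 to 24 h (adjusted p = 0.0506), in edgeR. Genes at low levels, such as E2F2, POLA2, ORC1 and GINS3, had the fewest counts behind their values, and the number of libraries at each time limits the precision of all values.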
